A study of Rattus norvegicus with 8 samples.

Results

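The members described here are the voltage-gated sodium channel subunit genes Scn1a, Scn2a, Scn3a, Scn8a and Scn9a (alpha subunits) and Scn2b, Scn3b and Scn4b (beta subunits). They were chosen by name, and because several of them had earlier been seen to rise in the Klf4 samples, so their difference between the groups is described and not tested. A probe was taken as a member where its accession, without the version, was a RefSeq transcript of one of the 8 symbols, which found all 8 symbols, out of 16581 on the array, and 12 of 45598 gene probes. Scn2a, Scn3a, Scn8a and Scn2b had 2 probes each and the other 4 genes had 1.

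The cells were GFP-positive cells sorted from retinal explants of Lister hooded rats of postnatal day 0. In 4 samples the retinas had been electroporated with a plasmid encoding Klf4, a zinc-finger transcription factor, and in 4 samples with a control plasmid. Both groups received 5 square pulses of 25 V and 50 ms, spent 39 hours in culture under agitation, and were dissociated with trypsin before sorting, so the controls had been electroporated and sorted as well. The samples are numbered 2 to 5 in each group, and the sources used here do not state the promoter of the plasmids. Nothing in the labels says that the samples came from separate animals or electroporations, so the spread behind every p-value is that of these 8 samples and may be technical.

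Voltage-gated sodium channels carry the rising phase of the action potential. The large alpha subunit forms the pore and the voltage sensor, and the small beta subunits, single-pass membrane proteins with an immunoglobulin fold, tune its gating and tether it to adhesion molecules and the cytoskeleton. In the retina these channels are known above all from the axons of ganglion cells and from some amacrine and bipolar cells.

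Of the 8 members, 6 lay above 0 and 2 below in the log2 difference between Klf4 and control samples. Among all features 25.3% lay above 0. The members were chosen because several rose, so nothing is read from this split. Their spread was wide, between 4.03 for Scn9a and -0.41 for Scn3a. Over 24 alternatives of the processing the sign changed for Scn2a (-0.13 to 0.21) and Scn8a (-0.16 to 0.04). The median of the 8 was 0.35, of the alpha subunits 0.03 and of the beta subunits 0.81, against -0.16 over all 29982 genes and unnamed features tested. With no scaling between arrays the median of all features was -0.04, so part of that shift lies in the scaling and member differences near 0 carry no direction. Past the threshold of the fit across all features (limma, Benjamini-Hochberg adjusted p under 0.05) were 2 members, Scn9a and Scn4b, both higher. Over all features 2.39% were called higher, 0.63% lower and 3.02% either way. Since that same contrast chose the members, nothing is read from this count. The signal scale throughout is log2 of the processed spot signal minus the 75th percentile of the gene spots of the same array, so 0 is the brightness of that percentile, and levels of different probes are not comparable.

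**Figure D1:**
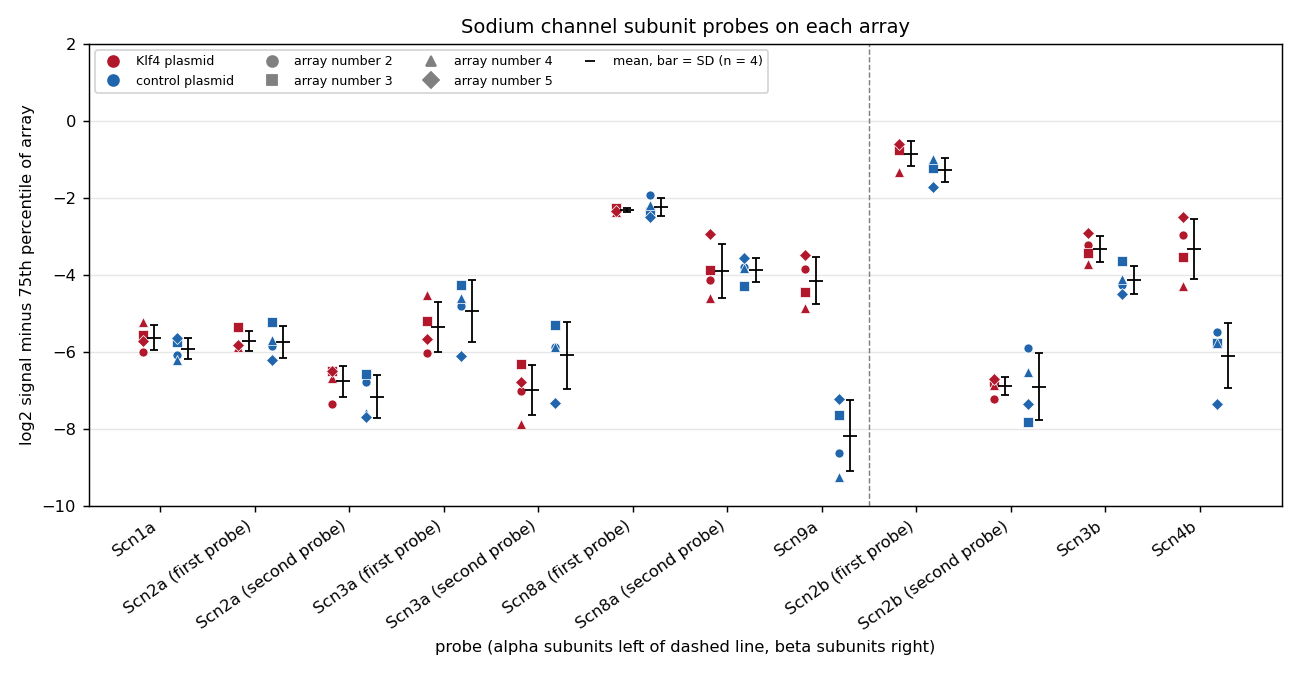
Log2 signal relative to the 75th percentile of the array (y axis) of the 12 probes of the 8 sodium channel subunit genes (x axis), in Klf4 (red, left) and control (blue, right) samples, with array numbers as symbols and mean and SD (n = 4) as bars. The groups do not overlap for Scn9a and Scn4b and overlap for the other 10 probes.

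The sequences just before the transcription start are shown for the members that differed most, Scn9a and Scn4b, and for a pair of alpha subunits near 0, Scn2a and Scn8a. They are the 250 bases before the start in the RefSeq promoter table of build GRCr8, which holds 6 of the 8 members, printed 5′ to 3′ on the strand of the gene. Scn9a lies at chr3:71701378-71701627 on the minus strand, Scn4b at chr8:54343623-54343872 on the plus strand, Scn2a at chr3:70710706-70710955 on the plus strand and Scn8a at chr7:133860977-133861226 on the plus strand. Capitals mark, on either strand, CACCC (the core of sites bound by Klf factors), GGGCGG (the GC box) and GGACAG (a piece of the element bound by the neuronal repressor REST).
Scn9a: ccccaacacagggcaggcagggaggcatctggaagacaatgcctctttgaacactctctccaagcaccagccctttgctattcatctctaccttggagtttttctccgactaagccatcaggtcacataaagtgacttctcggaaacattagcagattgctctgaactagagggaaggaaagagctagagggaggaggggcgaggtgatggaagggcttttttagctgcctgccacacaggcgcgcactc
Scn4b: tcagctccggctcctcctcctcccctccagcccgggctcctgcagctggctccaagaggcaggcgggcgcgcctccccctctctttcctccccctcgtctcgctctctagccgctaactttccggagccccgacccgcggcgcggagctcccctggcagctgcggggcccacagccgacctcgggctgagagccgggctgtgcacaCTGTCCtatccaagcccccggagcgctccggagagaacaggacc
Scn2a: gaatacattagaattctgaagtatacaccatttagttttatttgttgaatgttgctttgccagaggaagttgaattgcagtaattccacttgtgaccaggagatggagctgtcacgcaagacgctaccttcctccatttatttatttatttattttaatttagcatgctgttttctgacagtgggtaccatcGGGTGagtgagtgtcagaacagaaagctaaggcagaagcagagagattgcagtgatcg
Scn8a: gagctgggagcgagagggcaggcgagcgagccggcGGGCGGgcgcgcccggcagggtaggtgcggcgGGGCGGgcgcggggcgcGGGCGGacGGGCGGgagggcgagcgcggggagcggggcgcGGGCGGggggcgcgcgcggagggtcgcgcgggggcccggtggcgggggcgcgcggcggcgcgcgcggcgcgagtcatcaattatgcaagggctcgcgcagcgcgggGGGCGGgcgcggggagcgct

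The windows of Scn9a and Scn4b held no CACCC and no match to the GC box. They also held none to GGGNGTG, another form of Klf site, searched on both strands like the others; its matches can overlap those of the first motif. Scn2a held 1 CACCC and Scn8a held 6 copies of GGGCGG, while Scn4b held 1 GGACAG. Among the 6 members with a window 2 held CACCC, 1 held GGGNGTG, 1 held GGGCGG and 1 held GGACAG, and the other REST piece CAGCACC and the TATA box TATAAA had no match in these windows. Over all 33469 promoters of the same length the shares were 49.2% for CACCC, 23.3% for GGGNGTG, 30.5% for GGGCGG, 18.2% for GGACAG, 5.43% for CAGCACC and 12.9% for TATAAA. The GC content of the windows was 52.4% for Scn9a, 71.6% for Scn4b, 39.6% for Scn2a and 86% for Scn8a, against a median of 51.2%. A match or its absence describes these letters only.

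Scn9a, an alpha subunit best known from sensory and sympathetic neurons, differed most. Its probe read -3.84, -4.44, -4.86 and -3.49 in Klf4 samples 2 to 5 and -8.62, -7.64, -9.25 and -7.23 in control samples 2 to 5. All Klf4 samples lay above all control samples, with a gap of 2.38 between the groups. In unscaled signal units the Klf4 samples read 182 to 338 and the controls 6.14 to 26.6. The means were -4.16 ± 0.61 with Klf4 and -8.19 ± 0.92 in controls (SD, n = 4 each), a log2 difference of 4.03 (SE 0.48) or 16.3-fold. Only 1 of the 4 control arrays held a signal well above background, against all 4 Klf4 arrays, so Scn9a passed the filter on dim probes through the Klf4 group alone and its fold rests on dim control signals. With normexp background correction, which lifts dim signals, the log2 difference was 1.86.

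The other alpha subunits did not part the groups. Scn8a, the main alpha subunit of mature axon initial segments and nodes, was even across samples, at -2.30, -2.27, -2.36 and -2.35 in Klf4 samples 2 to 5 and -1.92, -2.36, -2.18 and -2.49 in control samples 2 to 5. Its log2 difference was -0.08 (SE 0.14), and -0.02 with its second probe, and with the 4 other scalings and the authors' values it lay between 0.00 and 0.04. Scn2a, an alpha subunit of early and unmyelinated axons, read -5.83, -5.35, -5.89 and -5.83 in Klf4 samples and -5.85, -5.23, -5.71 and -6.22 in controls, with a log2 difference of 0.03 (SE 0.23) and 0.40 with its second probe. The second probe of Scn2a was dim, well above background on 3 Klf4 and 2 control arrays.

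Scn3a, the alpha subunit that prevails in the embryonic and newborn brain, was the member with the lowest difference. It read -6.04, -5.20, -4.53 and -5.66 in Klf4 samples 2 to 5 and -4.81, -4.26, -4.60 and -6.11 in control samples 2 to 5. The log2 difference was -0.41 (SE 0.45), smaller than its error. The groups overlapped: Klf4 sample 4 lay above control samples 2 and 4, and control sample 5 lay lowest of all. Its second probe, which was well above background on 3 arrays of each group, gave -0.91, with the groups overlapping again. Scn1a, an alpha subunit known from inhibitory neurons, averaged -5.63 ± 0.33 with Klf4 and -5.93 ± 0.27 in controls (SD, n = 4 each), a log2 difference of 0.29 (SE 0.21).

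Scn4b, whose product is linked to alpha subunits by a disulfide bond, differed most among the beta subunits. It read -2.98, -3.55, -4.30 and -2.49 in Klf4 samples 2 to 5 and -5.48, -5.78, -5.78 and -7.36 in control samples 2 to 5. All Klf4 samples lay above all controls, with a gap of 1.19, and control sample 5 stood apart below the other controls. The means were -3.33 ± 0.78 with Klf4 and -6.10 ± 0.85 in controls (SD, n = 4 each), a log2 difference of 2.77 (SE 0.50) or 6.84-fold. The probe was well above background on 4 Klf4 and 3 control arrays. Its log2 difference was 2.35 without control sample 5 and 1.73 with normexp.

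Scn3b, whose product binds the alpha subunit without a covalent bond, read -3.24, -3.44, -3.72 and -2.92 in Klf4 samples 2 to 5 and -4.28, -3.64, -4.11 and -4.51 in control samples 2 to 5. Control sample 3 lay above Klf4 sample 4, so the groups overlapped. The log2 difference was 0.81 (SE 0.23), and within each array number the Klf4 sample was the higher, though samples of a number were not treated as pairs. Scn2b, the other disulfide-linked beta subunit, read -0.75, -0.74, -1.33 and -0.61 with Klf4 and -1.18, -1.22, -0.98 and -1.73 in controls, with overlap and a log2 difference of 0.42 (SE 0.22). Its second probe, on another transcript accession and well above background on 3 arrays of each group, gave 0.01.

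The arrays allow a look at technical spread for 4 of the 12 probes, which were printed more than once per array. The 10 spots of the first Scn2b probe had an SD of 0.02 to 0.10 on the log2 scale within an array, and the 2 spots of Scn3b one of 0.01 to 0.14. Both ranges lay below the SD between samples of the same group, 0.32 in each group for that Scn2b probe, and 0.34 with Klf4 and 0.37 in controls for Scn3b. The spots of Scn4b differed more, with an SD of 0.03 to 0.45, and those of the dim second Scn2a probe by up to 1.02.

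Some samples ran high or low across the members. Klf4 sample 5 was the highest of its group for 7 of the 12 probes and Klf4 sample 4 the lowest for 8, while control sample 5 was the lowest of its group for 8. This order was not counted over all kept probes, so it is not read as a trait of the members. Both samples numbered 5 were read in a second scan, and both numbered 4 failed quality limits set in the extraction software. For 10 of the 12 probes the difference between the arrays of the second scan exceeded that in the first scan, as it did for 64.8% of all 34473 kept probes with a value on every array. The first scan gave Scn9a a log2 difference of 4.12 and the second 3.74, and Scn4b 2.07 and 4.87. For Scn3b it was 0.54 and 1.60, for Scn2b 0.18 and 1.12, and for Scn3a -0.70 and 0.44, so the sign of Scn3a differed between the scans. With 1 array of each group, the second scan allows no test of its own. The part of the scan in these values was not tested, and since all Klf4 arrays lay in slide columns 2 and 4 and all controls in columns 1 and 3, slide column and group cannot be told apart.

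**Figure D2:**
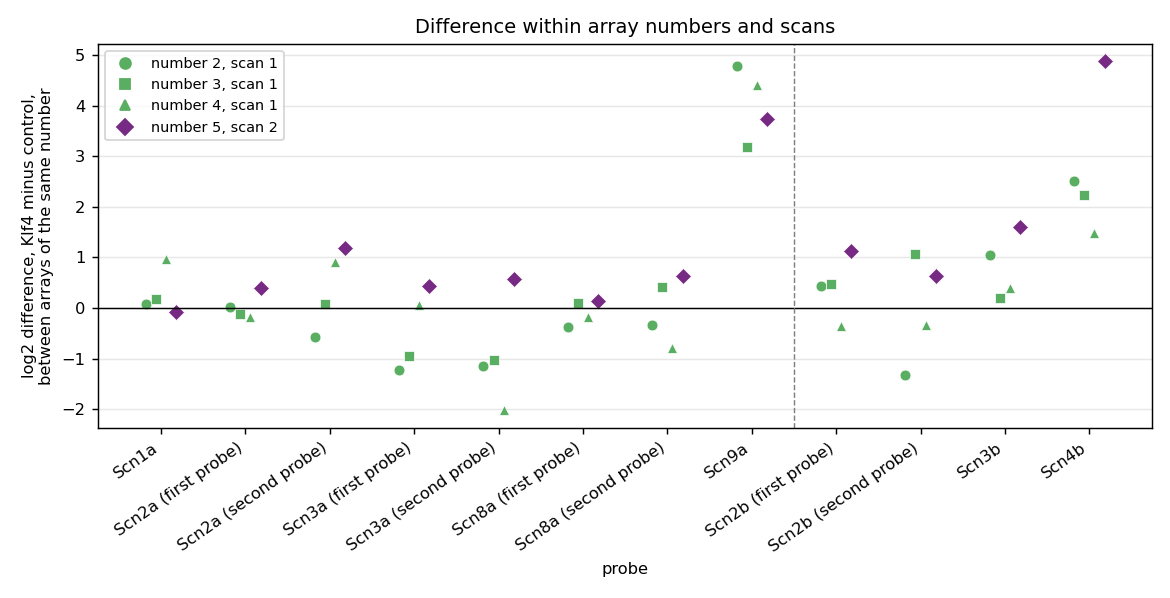
Log2 difference (Klf4 minus control, y axis) between arrays of the same number for the 12 member probes (x axis), with numbers 2 to 4 of the first scan in green and number 5 of the second scan in purple. All 4 differences are above 0 for Scn9a, Scn3b and Scn4b, which for Scn9a and Scn4b follows from groups that do not overlap. For Scn4b the second scan gives 4.87 against 1.49 to 2.51 in the first. Samples of the same number were not treated as pairs.

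Only 2 of the 12 probes, those of Scn9a and Scn4b, had groups that did not overlap, both with Klf4 above, while 4.42% of all kept probes did so with Klf4 above and 8.39% with Klf4 below. Since the members were chosen in this contrast, nothing is read from that count either. In the 24 other settings of the processing Scn9a was past the threshold in 24 and Scn4b in 17. These settings reuse the same 8 arrays and the contrast that chose the members. They show only how the calls depend on the processing and add no separate evidence. Among the settings in which Scn4b was not past it were leaving out Klf4 sample 2, 3 or 5 or control sample 3 or 4, and keeping the first scan alone. Scn3b was past it in 2 settings, quantile normalization and array weights, and Scn1a, Scn2a, Scn3a, Scn8a and Scn2b in 0 of 24. Those 2 settings also called more of all features higher, 1056 with quantile normalization and 1682 with array weights, against 717 in the fit used throughout.

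Of the sodium channel subunit genes outside the members, Scn4a, the alpha subunit of skeletal muscle, read -4.75, -4.76, -5.70 and -5.16 in Klf4 samples 2 to 5 and -4.49, -4.73, -4.62 and -5.04 in control samples 2 to 5. The groups overlapped, and the log2 difference was -0.37 (SE 0.24, limma adjusted p = 0.528). Scn11a, an alpha subunit of sensory neurons, was at 0.02 (limma adjusted p = 0.983), and the probe of Scn10a, another sensory subunit, was well above background on 0 Klf4 and 1 control array and was not tested.

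On the chromosomes of assembly GRCr8, Scn3a and Scn2a are neighbours, and so are Scn1a, Scn9a and Scn7a in the same cluster. Within it Scn9a differed by 4.03 and its measured neighbour Scn1a by 0.29. Scn2b and Scn4b are also neighbours, at 0.42 and 2.77. The differences between neighbours were not tested.

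Proteins that bind, anchor or process the channel were looked at as a list of 22 genes, of which 18 were tested. Of these, 4 rose, 3 of them described here, and 14 did not pass, with a median of 0.07 against -0.16 over all features. Over all features 2.39% were called higher. The median of the partner genes ran from -0.04 to 0.19 over the 24 alternatives. Nfasc, which encodes neurofascin, an adhesion molecule that gathers sodium channels at the initial segment and nodes, rose by 1.53 (SE 0.22, limma adjusted p = 0.00855), with Klf4 samples between -4.33 and -3.45 and controls between -5.58 and -5.10. A second Nfasc probe gave 0.27. Sptbn4, a spectrin of the initial segment, rose by 0.89 (SE 0.18, adjusted p = 0.0372), and Dpysl2, a collapsin response mediator, by 0.57 (SE 0.12, adjusted p = 0.0489) with 0.05 for its second probe. Among those that did not pass with the brightest probes were S100a10 at 0.70 (adjusted p = 0.283) and the ubiquitin ligase gene Nedd4 at -0.12 (adjusted p = 0.724). A second Nedd4 probe gave -0.46.

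Nfasc kept its call in 22 of 24 alternatives, Sptbn4 in 12 and Dpysl2 in 8. Nfasc lost it with no scaling, at a log2 difference of 1.65 (limma adjusted p = 0.0758), and with only the first scan kept, at 1.37 (0.0769). Sptbn4 lost it without Klf4 sample 2, 3 or 5 or control sample 2, 4 or 5, at log2 differences of 0.77 to 0.97, with adjusted p from 0.0618 to 0.130. Dpysl2 lost it without Klf4 sample 2, 3 or 5 or control sample 2, 3 or 4, at log2 differences of 0.54 to 0.62, with adjusted p from 0.0936 to 0.179.

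Voltage-gated potassium channels, which end the action potential, gave no calls. Of 22 genes 18 were tested with limma and 0 passed, with 2 at an unadjusted p under 0.05. Over all features 3.02% were called either way, so nothing is read from 0 calls among 18 genes. The share of all features at that unadjusted p is not given here. Their median was -0.13 against -0.16 over all features, and with quantile normalization 0.00 against -0.06. Kcnd3, a channel of fast transient current, was at -0.15 (adjusted p = 0.723), with -1.03 for its second probe. One potassium channel gene passed as lower with array weights.

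Sodium channel genes are textbook targets of REST, a repressor that keeps neuronal genes silent in other cells. Of 6 tested genes of its complex, 0 passed with limma and 2 had an unadjusted p under 0.05, and all 6 lay below 0, with a median of -0.25, or -0.13 with no scaling. Over all features 3.02% were called either way and only 25.3% lay above 0. The median of all features was -0.16, or -0.04 with no scaling. Rest itself, singled out after its value was seen, was at -0.32 (SE 0.13, adjusted p = 0.320) with its brightest kept probe. With the mean over its kept probes Rest was at -0.67 and did not pass either, so its size depends on the probe. The corepressor gene Rcor2 was at -0.18 (adjusted p = 0.615) and the deacetylase gene Hdac1 at -0.15 (adjusted p = 0.756). Of 16 tested neuronal genes known as REST targets, 3 rose and 13 did not pass, with a median of 0.07. Over all features 2.39% were called higher. The median of these targets ran from -0.17 to 0.22 over the 24 alternatives, so its sign was not stable. Stmn2, a microtubule regulator of growing axons, rose by 3.28 (SE 0.42, limma adjusted p = 0.00454), Chrm4, a muscarinic receptor gene, by 2.22 (SE 0.28, adjusted p = 0.00403), and Nefm, a neurofilament subunit, by 1.80 (SE 0.33, adjusted p = 0.0256).

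Nefm, at log2 differences of 1.55 to 1.90, lost its call when any 1 sample but Klf4 sample 4 was left out (limma adjusted p from 0.0536 to 0.0957) and with only the first scan kept (0.110). The count of REST targets called higher was 5 under 6 of the other settings, among them the array median and quantile normalization. Stmn2 and Chrm4 kept their calls in all 24 alternatives, with adjusted p up to 0.0407 and 0.0449.

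**Figure D3:**
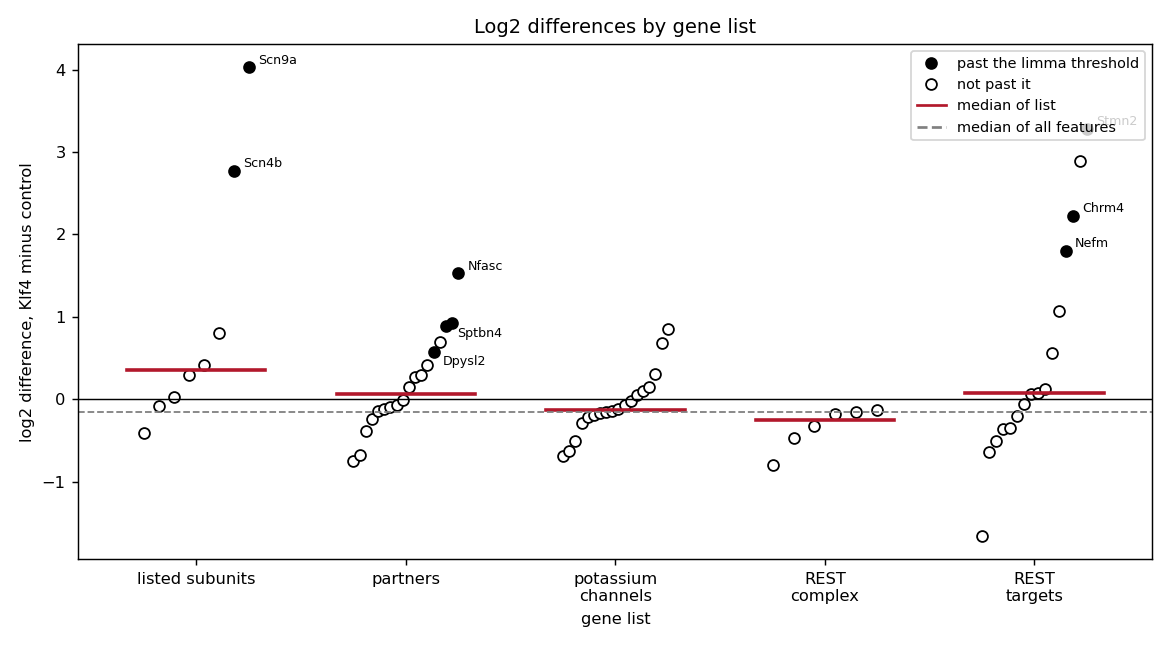
Log2 difference between Klf4 and control samples (y axis) of the 8 listed subunits and of 4 gene lists (x axis), 1 point per gene, filled where the gene was past the limma threshold (8 of these points carry their gene's name), with list medians in red and the median of all features, -0.16, dashed. Scn9a and Scn4b stand above the other listed subunits, and the potassium channel points lie between -0.69 and 0.85.

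The genes whose pattern over the 8 samples was nearest to the member with the largest difference of each kind were taken by the root mean square difference between profiles, each centred on its own mean over the samples, among 13483 named genes outside the members. This measure includes the group difference itself. For Scn9a the nearest 5 were Wnt9a (0.36 log2 units), a Wnt ligand, Sgk1 (0.38), a serum-regulated kinase, Kdelr3 (0.42), Cavin3 (0.51) and Syce3 (0.54). Their own log2 differences lay between 3.60 and 4.35. For Scn4b they were Wnt2b (0.17), another Wnt ligand, Trim29 (0.20), Cyp2s1 (0.21), the calcium pump gene Atp2a1 (0.27) and Adcyap1 (0.28), a neuropeptide gene, with log2 differences between 2.48 and 3.00. Several of these also had dim controls: Sgk1 and Atp2a1 stood well above background in 1 of the controls, and Wnt9a, Wnt2b and Adcyap1 in 2.

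The probe of Klf4 itself averaged -4.71 ± 0.90 in Klf4 samples and -4.88 ± 0.59 in controls (SD, n = 4 each). Whether it reads the RNA of the plasmid is not stated, so it tells nothing about the labels. In such sorted bulk samples, fewer cells of a type and less RNA per cell cannot be told apart. Among 12 ganglion cell markers 7 were tested and 1, Nefm, was higher, and their summed signal, in units of the array's 75th percentile, was 0.608 to 1.21 in Klf4 samples and 0.487 to 0.561 in controls. The median log2 difference of the 7 was 0.02, and without Nefm the sum of the other 6 was 0.467 to 0.764 in Klf4 samples and 0.421 to 0.467 in controls. Of 6 endothelial markers 4 were tested and 2 were higher, with sums of 28.3 to 43.3 with Klf4 and 31.3 to 35.8 in controls, and of 5 astrocyte markers 4 were tested and 1 was higher, with sums of 0.140 to 0.207 and 0.0845 to 0.178. Of 8 photoreceptor markers 7 were tested and 1 was lower, with sums of 2.10 to 4.59 with Klf4 and 3.78 to 8.84 in controls. The amacrine, progenitor and Muller glia, oligodendrocyte, microglia, and skeletal and heart muscle lists held 0 called genes by limma. Over all features 2.39% were called higher and 0.63% lower, and nothing is read from these small counts. List medians were 1.11 for endothelium, -0.04 for astrocytes and -0.56 for photoreceptors, against -0.16 over all features. Those of the lists with 0 called genes lay between -0.18 and 0.04. The sums of the muscle list were 1.36 to 4.34 with Klf4 and 1.24 to 2.40 in controls. In all 9 lists the defining markers, were well above background on at least 1 array, and the part of any of these cell types in the sodium channel values was not tested.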

How the data were processed

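Per the labels, RNA of sorted retinal cells was labelled with Cy3, and per the file headers it was hybridised to 8 single-colour Agilent arrays on 1 slide and extracted with Feature Extraction 10.7.3.1 (annotation build rn4). The deposited intensity values (processed signal, and the median signal and background used for an alternative) were background-subtracted or left as measured by that software, per the file headers, and keep each array's own brightness. Flags in the same deposited files, unit other, mark control, outlier, saturated and well-above-background spots. The authors also deposited a table of log2 values, made in a way no header or label records, whose columns share a median of 7.54 and correlate with their own arrays at 0.994 or more across probes, so that its scale is log2 with no centring of genes and its direction that of the signals. The array's gene spots had a 75th percentile of 2354 to 5297, 71.9% to 86.5% of them were well above background, 0 were saturated and 324 to 421 were outliers and left out. Precision is limited by the 8 arrays.

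Each spot's log2 signal had the 75th percentile of its array's gene spots subtracted, and repeat spots were averaged. The files held no mean signal, so normexp used the median signal. A probe was kept if well above background on at least 3 of 4 arrays of a group, and a gene was its kept probe with the highest mean. Accessions were matched, without versions, to RefSeq genes of GRCr8: 21109 probes had 1 symbol, 0 several and 24489 none. Groups were compared with limma 3.58.1 (lmFit, eBayes) in R 4.3.3, two-sided, over all features, with Benjamini-Hochberg adjustment and a threshold of 0.05, and differences are Klf4 minus control. The scripts were tested on simulated data. Figures used matplotlib 3.10.9. The members, lists, tests and naming rules were chosen with earlier results of these data known. Named outside the members are the genes past the threshold of each list (at most 6 by size), the 2 brightest that did not pass, and the 5 nearest profiles. Results on some genes of these lists are not reported here.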

Additional observations from a re-analysis of the deposited data

Results flagged for a closer look

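Among 24 groups of 4 values, 12 member probes in each of the Klf4 and control groups, 2 held a sample far from the other 3 by Dixon's test, and chance gives about 1 in 20. The first Scn2a probe read -5.35 in Klf4 sample 3, above the other Klf4 samples at -5.89 to -5.83. Scn4b read -7.36 in control sample 5, of the second scan, below the other controls at -5.78 to -5.48.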

How the results depend on the processing

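Over 24 alternatives, member differences moved by more than the spread between replicates only with normexp background correction, for Scn9a (1.86) and Scn4b (1.73). Leaving out 1 sample gave 1 to 2 members called higher, and 1 with the replicate block and in the first scan alone. For all features, called higher and lower were 717 and 189. The higher count was 396 in the first scan alone and 1682 with array weights. The lower count was 123 with the array median, 2 with no scaling, 97 with no filter on dim probes, 110 with the replicate block, 348 with the scan block, 44 in the first scan alone and 1951 with array weights. Leaving out 1 sample gave 436 (Klf4 sample 2) to 1145 (Klf4 sample 4) higher, with 471 without control sample 4, and 44 (control sample 2) to 485 (Klf4 sample 4) lower, with 49, 98 and 59 without Klf4 sample 2, 3 and 5 and 56 and 53 without control sample 3 and 4. The share of calls that were higher was 79.1%, against 99.6% with no scaling, 46.3% with array weights and 87.2% with the percentile taken over probes, an alternative chosen after seeing the data. Partner genes called higher were 0 with no scaling and in the first scan alone, 2 with no filter, the slide row block and without both arrays numbered 4, 1 with the replicate block, and 1 to 4 leaving out 1 sample (1 without control sample 4, and 2 without Klf4 sample 2, 3 or 5 or control sample 2), with 1 lower with array weights. REST targets called higher were 5 with the array median, quantile normalization, normexp, the authors' values, array weights and the percentile over probes, and 2 to 4 leaving out 1 sample. 1 was lower with the replicate block, the scan block and array weights. REST complex genes called lower were 1 with normexp, with array weights and without Klf4 sample 4, against 0 to 1 over all single samples left out, and potassium channels called lower 1 with array weights. The cause of these moves was not tested. Samples of the same number deviated together with correlations of 0.36, 0.24, 0.06 and 0.55 across features, and those numbered 2, 3 and 5, but not those numbered 4, correlated best with their own number. Arrays of a number also lay in the same slide row, and those numbered 5 shared the second scan. The labels do not say what a number marks and 1 correlation was under 0.1, so the samples were not treated as pairs. The replicate block also ended the calls of Scn4b, Sptbn4, Dpysl2 and Nefm. Dim control signals limit the fold of Scn9a.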
